A study of Mus musculus with 4 samples.

Results

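The 41 genes described here were activated in G1E cells with wild-type GATA-1 and with GATA-1 V205M. With GATA-1 2RA they stood between 0.5 and 2 times the control level. G1E is a mouse erythroblast line without GATA-1, a zinc finger transcription factor on which the making of red cells depends. The groups were G1E cells that carry GATA-1 2RA, GATA-1 V205M or the wild-type form (labelled GATA-1 WT), and the G1E control, with 1 sample a group and β-estradiol induction in all 4. V205M weakens the contact of GATA-1 with the cofactor FOG-1. The labels say neither what 2RA changes, nor how the GATA-1 forms were delivered, nor whether each line is 1 clone. A level is the authors' number of reads after division by a size factor (scaled reads). A member had a level of at least 2 times the G1E control in GATA-1 WT and in GATA-1 V205M, with GATA-1 V205M above 0.5 times and below 2 times GATA-1 WT. In GATA-1 2RA it was at most 0.5 times GATA-1 WT, and it was below 2 times and above 0.5 times the G1E control. All 4 levels had to be present, and the highest had to reach 50 scaled reads. Of 2982 gene symbols in the 6 deposited tables, 1157 had all 4 levels and 1124 of these reached 50. In that set 564 genes had at least 2 times the control level in GATA-1 WT, 46 met every criterion, and 5 of the 46 (Aldoa, Ldha, Slc31a1, Stom and Tfrc) were left out by symbol. All 41 members were found in the GENCODE M21 annotation of GRCm38, on 16 chromosomes.

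GATA-1 acts through its zinc fingers, which bind GATA motifs in DNA and contact partner proteins such as FOG-1. During red cell maturation it turns on genes for hemoglobin, heme synthesis and the red cell membrane, and turns off genes of the progenitor state. Since the levels of all 4 groups chose the members, every difference between groups given for them is a description without a test. In bulk RNA, fewer cells of a type and less RNA per cell cannot be told apart.

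The reads behind the levels of listed genes summed to 1218762 in GATA-1 2RA, to 1147539 and 977544 in the 2 columns of reads behind GATA-1 V205M, to 2178397 in GATA-1 WT, and to 1015015 and 276064 in the G1E control, which also has 2. No source used here says whether such columns are cultures or sequencing runs, and they were not treated as replicates. Gata1 itself had 1421 scaled reads in GATA-1 2RA, 613 in GATA-1 V205M, 2652 in GATA-1 WT and 153 in the G1E control. The part of Gata1 dose in the levels of the 41 members was not tested. Klf1, an erythroid transcription factor, stood at 381 scaled reads in GATA-1 2RA, 382 in GATA-1 V205M, 1418 in GATA-1 WT and 462 in the G1E control. All 6 erythroid markers used here were in the tables, and the 5 with all 4 levels summed to 2759 scaled reads in GATA-1 2RA, 548 in GATA-1 V205M, 54206 in GATA-1 WT and 2003 in the control. Hbb-b1, a beta globin gene, made up 2342 of that sum in GATA-1 2RA, and without it the other 4 summed to 417 in GATA-1 2RA, 457 in GATA-1 V205M, 15099 in GATA-1 WT and 1765 in the control. Of 6 mast cell markers 5 were in the tables, with sums of 2398 in GATA-1 2RA, 2433 in GATA-1 V205M, 183 in GATA-1 WT and 5448 in the control. Kit, a growth factor receptor that is also on the progenitor list, had 2218 in GATA-1 2RA, 1440 in GATA-1 V205M, 179 in GATA-1 WT and 2429 in the control. Without Kit the other 4 mast cell markers summed to 180 in GATA-1 2RA, 993 in GATA-1 V205M, 3.78 in GATA-1 WT and 3020 in the control. The progenitor factor Gata2, the only other progenitor marker with all 4 levels, had 514 in GATA-1 2RA, 1316 in GATA-1 V205M, 54.8 in GATA-1 WT and 773 in the control. Of 6 megakaryocyte markers 2 were in the tables, and only Plek had all 4 levels. Plek had 1319 in GATA-1 2RA, 18.7 in GATA-1 V205M, 368 in GATA-1 WT and 237 in the control, and 1 gene does not stand for the list. The part of these shifts in the members' levels was not tested. None of 13 markers of lymphocytes, macrophages, neutrophils, endothelium and fibroblasts was in the tables, which list only genes that changed. Esr1, the estrogen receptor gene, had 43.6 in GATA-1 2RA, 13.3 in GATA-1 V205M, 58.6 in GATA-1 WT and 1.83 in the control, and Zfpm1 was in none of the tables.

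The members' levels in GATA-1 2RA were 0.132 to 0.489 times those in GATA-1 WT, with a median of 0.345. In GATA-1 V205M they were 0.503 to 1.65 times GATA-1 WT, with a median of 0.740, and 9 of 41 were above GATA-1 WT (Ampd2, Bcl2l13, Ero1l, Mapk9, Myo6, Pgam1, Prdx6, Prdx6-ps2 and Prdx6b). GATA-1 WT stood at 2.09 to 6.38 times the G1E control, with a median of 3.90, and GATA-1 2RA at 0.522 to 2.00 times the control, with a median of 1.16. On the log2 scale of level plus 1, the median of GATA-1 2RA minus GATA-1 WT was -1.51, against -0.14 over the 1124 genes that reached 50 scaled reads and -1.09 over the 564 genes activated in GATA-1 WT. The median of GATA-1 V205M minus GATA-1 WT was -0.43, against -0.43 over the 1124 genes and -1.32 over the 564, and it turned to 0.09 when levels were rescaled by the median of ratios. For GATA-1 2RA minus the G1E control the median was 0.21, against 0.44 over the 1124 genes and 1.15 over the 564, all under the authors' scaling. Under that rescaling the members' median turned to -0.36. The medians over the 1124 and 564 genes were not rescaled, so they are not set against it. The rescaling moved GATA-1 V205M relative to GATA-1 WT and GATA-1 2RA relative to the control as a whole, so the side on which a member lies is known only relative to the authors' scaling.

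**Figure D1:**
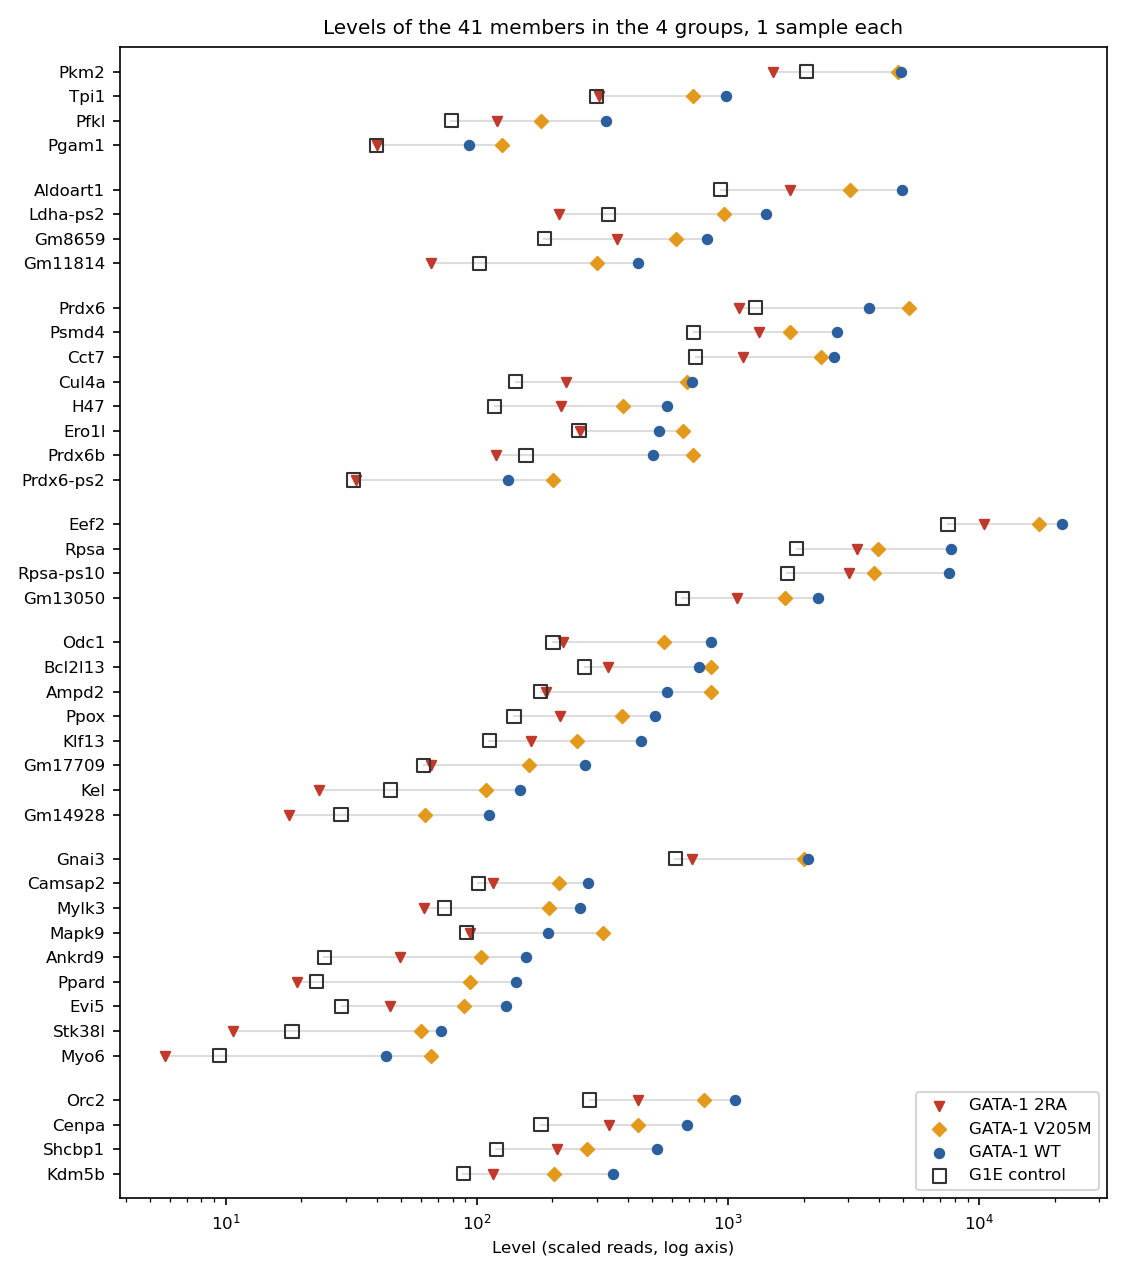
Levels of the 41 members in scaled reads on a log axis, 1 row a gene, grouped from top to bottom as glycolysis, copies of glycolytic genes, redox and protein folding or breakdown, translation, red cell and heme and metabolism, signalling and cytoskeleton, and chromosomes and division. Each symbol is 1 group of 1 sample. GATA-1 2RA lies beside or within 2 times the G1E control in every row. On this log axis GATA-1 V205M lies closer to GATA-1 WT than to the control. The rule fixes both positions. For 9 members GATA-1 V205M is above GATA-1 WT.

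GATA-1 2RA was below GATA-1 V205M for all 41 members, an order the rule fixes by setting them on opposite sides of 2 times the control, while it leaves the size of the gap open. The ratio of GATA-1 2RA to GATA-1 V205M ran from 0.0873 for Myo6 to 0.825 for Rpsa, with a median of 0.407, and it was at most 0.5 for 24 members. For the remaining 17 members the 2 mutants differed by less than 2-fold, so that being lost in GATA-1 2RA alone rests on the thresholds of the rule. Both count columns of GATA-1 V205M were above GATA-1 2RA, and above both columns of the G1E control, for 41 of 41 members. The levels that the rule used are the means of these columns, so this order was largely fixed and nothing is read from it. Against the 2 columns of the control, GATA-1 2RA was higher than both for 23 members, between them for 9 and lower than both for 9. The 2 columns of a group differed by a median of 1.03-fold in GATA-1 V205M and 1.18-fold in the G1E control over the members, and by at most 1.31-fold (Ankrd9) and 1.73-fold (Pgam1).

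The authors' deposited table of GATA-1 2RA against GATA-1 WT listed 40 of the 41 members as lower (adjusted p below 0.01 and over 2-fold), where 4.04% of the 12931 tested genes were so listed, and Pgam1 was the member not listed. The authors' deposited table of GATA-1 WT against the G1E control listed 41 members as higher, where 8.17% of tested genes were listed. In the authors' deposited table of GATA-1 V205M against the control, 40 members were higher, where 4.83% of tested genes were, and Gm14928 was not listed. The authors' deposited table of GATA-1 2RA against GATA-1 V205M listed 23 members as lower, where 2.62% of tested genes were listed. No member was in the authors' deposited table of GATA-1 V205M against GATA-1 WT, which listed 9.36% of tested genes in either direction, or of GATA-1 2RA against the control, which listed 7.46%. The rule used these same levels, so nothing is read from these counts against their backgrounds.

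**Figure D2:**
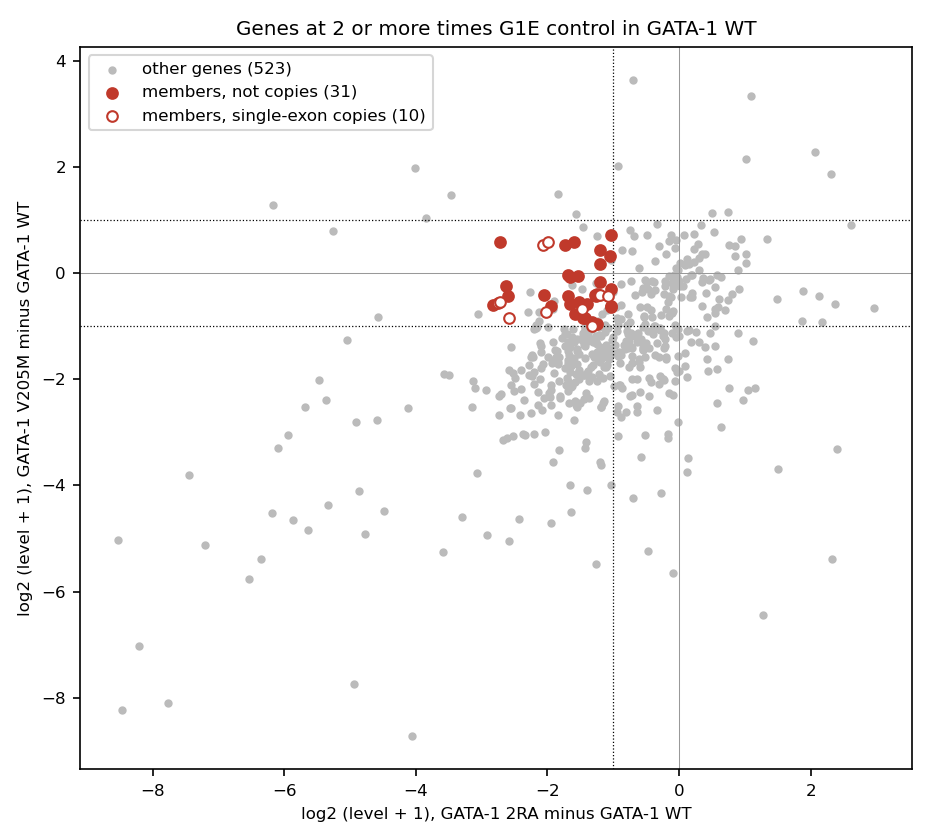
Difference in log2 of level plus 1 between GATA-1 2RA and GATA-1 WT (horizontal axis) and between GATA-1 V205M and GATA-1 WT (vertical axis) for the 564 genes at 2 or more times the control in GATA-1 WT, with dotted lines at a 2-fold difference. Red points are the 31 members that are not copies of another gene, open red points the 10 that are, and the 523 other genes are grey; members fill the space left of the vertical line and between the horizontal ones, where the grey points are genes that missed another limit of the rule or were left out by symbol.

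As a share of the gain of GATA-1 WT over the control, the members reached -21.0% to 30.8% in GATA-1 2RA, with a median of 8.58%, and 35.5% to 224% in GATA-1 V205M, with a median of 62.6%. In GATA-1 2RA, 11 members were below the control level, 10 kept up to 10% of the gain and 4 kept 25% or more. With the counting interval of each ratio (95%, from the pooled reads of each group, covering counting error only), GATA-1 2RA was above the control for 21 members, below it for 8 and not separated from it for 12. The 21 include Eef2 and Rpsa and the 8 include Pkm2, whose ratio of levels can lie outside the pooled interval. The 8 also include Mylk3, for which GATA-1 2RA lay between the count columns of the control. In GATA-1 V205M against GATA-1 WT the counting interval lay below 1 for 29 members, above 1 for 9, and held 1 for 3 (Cul4a, Gnai3 and Stk38l).

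**Figure D3:**
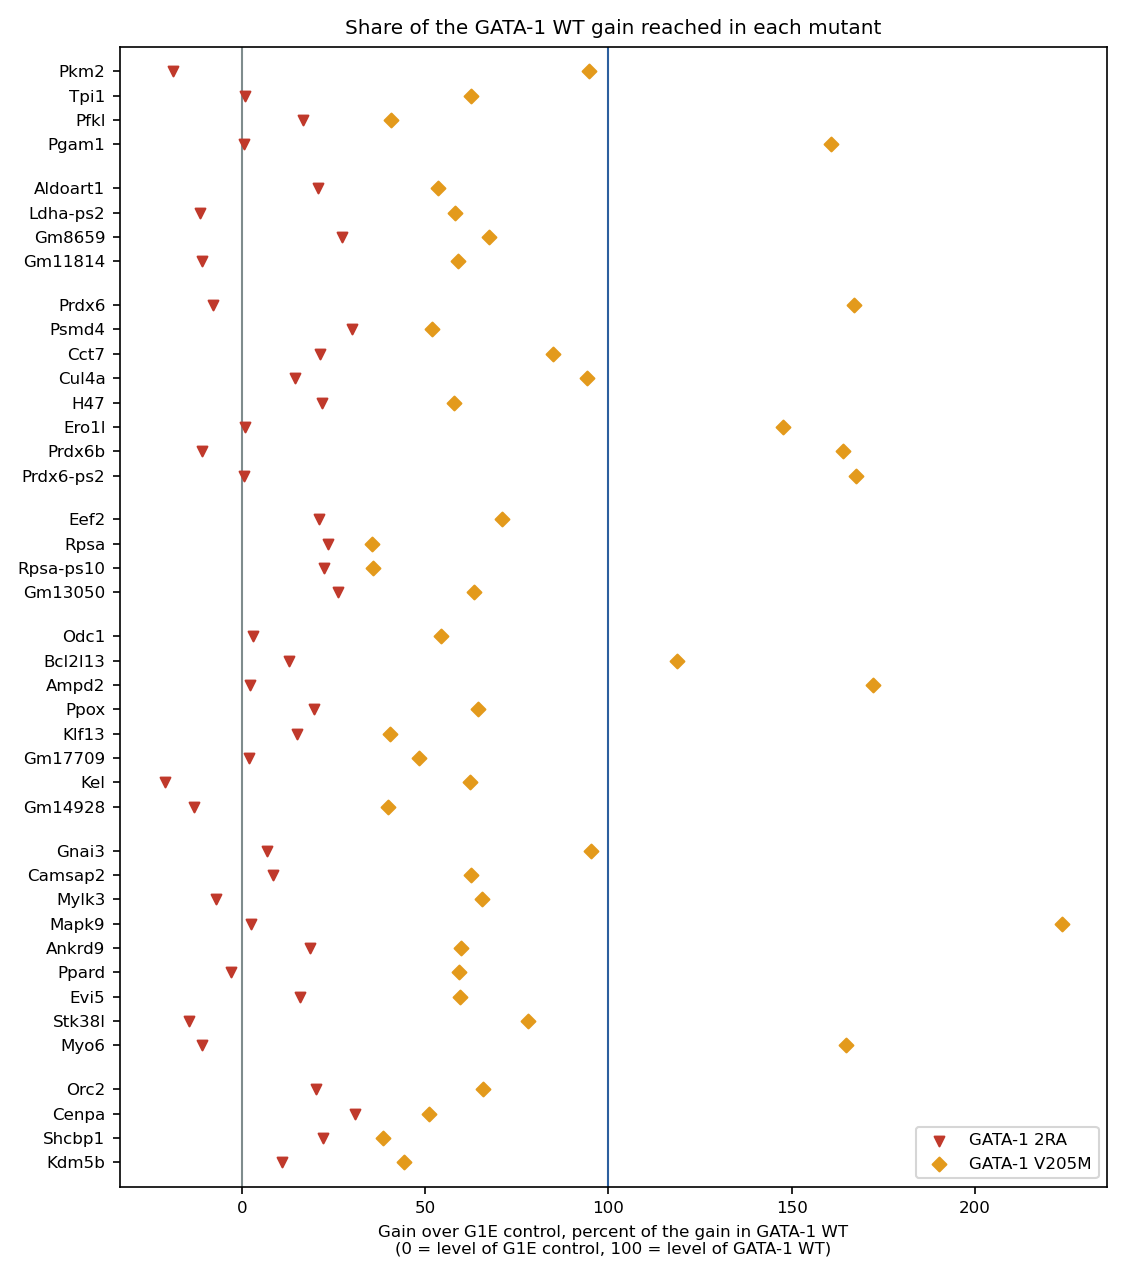
Gain over the G1E control as a percentage of the gain in GATA-1 WT, for GATA-1 2RA (red triangles) and GATA-1 V205M (orange diamonds), 1 row a member and 1 sample a group; the vertical lines are the control level (0) and the GATA-1 WT level (100). GATA-1 2RA lies between -21.0% and 30.8% and GATA-1 V205M between 35.5% and 224%, and the rule itself keeps GATA-1 2RA below GATA-1 V205M in each row.

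Glycolysis, which splits glucose to pyruvate, had 4 members. Pkm2 (Pkm in GENCODE, chr9:59656368-59679375, plus strand) encodes pyruvate kinase, the enzyme of the last step, and had 1518 scaled reads in GATA-1 2RA, 4754 in GATA-1 V205M, 4904 in GATA-1 WT and 2056 in the G1E control. GATA-1 V205M and GATA-1 WT lay close together and GATA-1 2RA was the lowest, at 0.310 times GATA-1 WT (counting interval 0.295 to 0.325). The 2 control columns stood at 2230 and 1883 scaled reads, both above GATA-1 2RA. Tpi1, the triose phosphate isomerase, had 305 in GATA-1 2RA, 726 in GATA-1 V205M, 981 in GATA-1 WT and 300 in the control, so GATA-1 2RA and the control differed by less than the counting error. Pfkl, a phosphofructokinase subunit of the committed step, had 120 in GATA-1 2RA, 180 in GATA-1 V205M, 326 in GATA-1 WT and 79.1 in the control, a graded order. Pgam1, phosphoglycerate mutase, had 40.01 in GATA-1 2RA, 126 in GATA-1 V205M, 93.2 in GATA-1 WT and 39.7 in the control. GATA-1 V205M was the highest for Pgam1, and the GATA-1 2RA level rested on 56 reads. Pkm2 had a TGATAA motif (capitals) in the 300 bases around 1 of its 2 RefSeq starts, from base -32, and the window (RefSeq, GRCm38.p6, chr9:59656326-59656625, plus strand) is shown because this member has the most reads among those with such a motif.
Pkm2: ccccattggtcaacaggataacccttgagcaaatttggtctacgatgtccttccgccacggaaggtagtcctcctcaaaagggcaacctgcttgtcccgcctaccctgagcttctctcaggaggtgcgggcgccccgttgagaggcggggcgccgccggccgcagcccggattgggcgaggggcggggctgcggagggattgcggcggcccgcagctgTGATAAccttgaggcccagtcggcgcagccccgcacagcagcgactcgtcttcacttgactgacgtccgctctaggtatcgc

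A list of 22 glycolytic genes, drawn up after the members were known, had 15 genes in the tables and 12 with all 4 levels. The authors' deposited table of GATA-1 2RA against GATA-1 WT had 10 of the 15 as lower and none as higher, that of GATA-1 V205M against GATA-1 WT had 4 as lower and none as higher, and that of GATA-1 WT against the control had 11 as higher. Over all tested genes the authors' deposited tables had 4.04% as lower in GATA-1 2RA than in GATA-1 WT, 5.65% as lower in GATA-1 V205M than in GATA-1 WT and 8.17% as activated in GATA-1 WT relative to the control. The 15 were already genes of a deposited table, so nothing is read from these counts beside those shares. The median over the 12 was -1.57 on the log2 scale for GATA-1 2RA minus GATA-1 WT and -0.43 for GATA-1 V205M minus GATA-1 WT, against -0.14 and -0.43 over the 1124 genes and -1.09 and -1.32 over the 564 activated genes. Of these 12, the 4 members, Aldoa and Ldha met every level limit of the rule, which largely fixes these medians, so nothing is read from them. Ldha, lactate dehydrogenase, had 4333 scaled reads in GATA-1 2RA, 16141 in GATA-1 V205M, 20748 in GATA-1 WT and 3987 in the control and was left out by name. Eno1, enolase, had 2986 in GATA-1 2RA, 5271 in GATA-1 V205M, 3698 in GATA-1 WT and 967 in the control, so GATA-1 2RA kept 80.7% of the GATA-1 WT level. Gpi1, glucose phosphate isomerase, had 297 in GATA-1 2RA, 319 in GATA-1 V205M, 777 in GATA-1 WT and 306 in the control, and both mutants stood near the control. Pklr, the red cell pyruvate kinase, had 0.714 in GATA-1 2RA, 4.65 in GATA-1 V205M, 350 in GATA-1 WT and 204 in the control, far below the control in both mutants. Pgk1, phosphoglycerate kinase, missed the module because GATA-1 V205M was 1.54 times the control, where 2 was required.

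**Figure D4:**
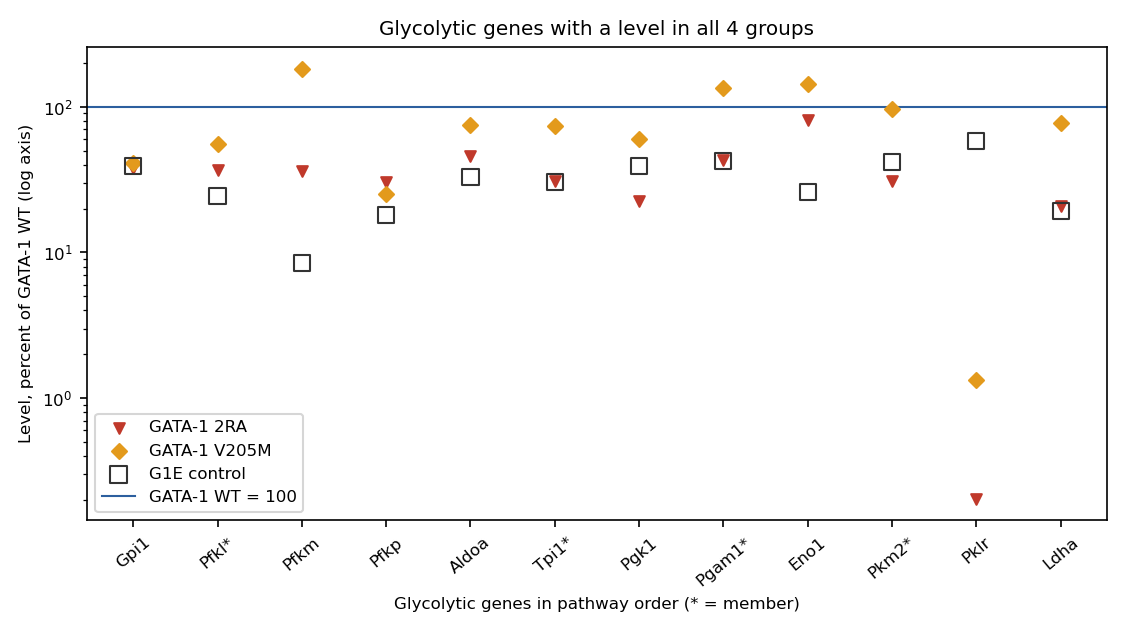
Levels of the 12 glycolytic genes with all 4 levels, as a percentage of GATA-1 WT on a log axis, in pathway order, with asterisks on the 4 members; symbols are groups of 1 sample each. GATA-1 2RA lies near the open squares of the control for Tpi1, Pgam1 and Ldha, GATA-1 V205M lies above 50% for these, and Pklr is low in both mutants.

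Peroxiredoxin 6 had the widest gap between the mutants among members with 1068 or more scaled reads in GATA-1 WT. Prdx6 (chr1:161240112-161251219, minus strand) encodes an antioxidant enzyme that reduces peroxides and oxidized phospholipids. It had 1103 scaled reads in GATA-1 2RA, 5294 and 5208 in the 2 columns of GATA-1 V205M, 3661 in GATA-1 WT, and 1316 and 1265 in the 2 columns of the control. GATA-1 V205M was the highest group, and GATA-1 2RA was 0.210 times GATA-1 V205M (counting interval 0.199 to 0.221). Its single-exon relative Prdx6b had 119 in GATA-1 2RA, 725 in GATA-1 V205M, 503 in GATA-1 WT and 157 in the control, and the pseudogene Prdx6-ps2 had 32.9 in GATA-1 2RA, 201 in GATA-1 V205M, 133 in GATA-1 WT and 32.3 in the control. All 3 had GATA-1 V205M above GATA-1 WT and GATA-1 2RA below it. Prdx1 also had GATA-1 V205M above GATA-1 WT, but there GATA-1 WT was the lowest group, with 687 in GATA-1 2RA, 1382 in GATA-1 V205M, 273 in GATA-1 WT and 447 in the control. Prdx2, abundant in red cells, had 2756 in GATA-1 2RA, 1555 in GATA-1 V205M, 8249 in GATA-1 WT and 1916 in the control, with GATA-1 V205M the lowest.

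Ero1l, an oxidase that forms disulfide bonds in the endoplasmic reticulum, had 258 scaled reads in GATA-1 2RA, 665 in GATA-1 V205M, 533 in GATA-1 WT and 255 in the control. H47 (Selenos in GENCODE), a selenoprotein of the breakdown of misfolded proteins at the endoplasmic reticulum, had 217 in GATA-1 2RA, 381 in GATA-1 V205M, 573 in GATA-1 WT and 118 in the control. Cul4a, the scaffold of a family of ubiquitin ligases, had 226 in GATA-1 2RA, 685 in GATA-1 V205M, 720 in GATA-1 WT and 143 in the control. For Cul4a the V205M level was within counting error of GATA-1 WT (ratio 0.952, interval 0.884 to 1.03), and GATA-1 2RA was 0.315 times GATA-1 WT (0.277 to 0.357). Cct7, a subunit of the chaperonin CCT, had 1150 in GATA-1 2RA, 2355 and 2356 in the 2 columns of GATA-1 V205M, 2644 in GATA-1 WT, and 817 and 672 in the 2 columns of the control. Psmd4, a ubiquitin receptor of the proteasome, had 1330 in GATA-1 2RA, 1761 in GATA-1 V205M, 2722 in GATA-1 WT and 731 in the control, a graded order in which the mutants differed by 1.32-fold. Of 18 genes of the proteasome's regulatory particle, a list drawn up after the members were known, 8 were in the tables. The authors' deposited table of GATA-1 WT against the control listed 6 as higher, where 8.17% of all tested genes were so listed. Psmd4 alone had all 4 levels, and nothing is read from the count of 6.

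The 4 translation members had the smallest gap between the mutants of the role groups, with a median ratio of GATA-1 2RA to GATA-1 V205M of 0.719, against 0.317 in signalling and cytoskeleton and 0.666 in chromosomes and division. That median rests on Eef2 (ratio 0.601), Rpsa (0.825) and a copy of each, and these ratios lie on both sides of 0.666. Eef2 (chr10:81176631-81182498, plus strand), the elongation factor that moves the ribosome along the mRNA, had 10451 scaled reads in GATA-1 2RA, 17392 in GATA-1 V205M, 21429 in GATA-1 WT and 7522 in the control. Rpsa (chr9:120127689-120132369, plus strand), a protein of the small ribosomal subunit that also serves as a laminin receptor, had 3259 in GATA-1 2RA, 3987 and 3918 in the 2 columns of GATA-1 V205M, 7717 in GATA-1 WT, and 2036 and 1724 in the 2 columns of the control. GATA-1 2RA reached 23.6% and GATA-1 V205M 35.5% of the gain of GATA-1 WT over the control, with GATA-1 2RA at 0.825 times GATA-1 V205M (counting interval 0.795 to 0.854). None of the 4 translation members (Eef2, Rpsa and the copies Gm13050 and Rpsa-ps10) and none of the 4 members of chromosomes and division was in the authors' deposited table of GATA-1 2RA against GATA-1 V205M. In that table were 3 of 4 glycolysis members, 2 of 4 copies of glycolytic genes, 6 of 8 in redox and protein folding or breakdown, 6 of 8 in red cell, heme and metabolism, and 6 of 9 in signalling and cytoskeleton. Over all tested genes, 2.62% were listed there as lower in GATA-1 2RA. The roles were drawn up after the members were known, and the rule used these levels. Nothing is therefore read from the counts by role.

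Of the 41 members, 10 were single-exon copies of 6 other genes, 8 of them annotated as processed pseudogenes. The share of such copies among the other genes was not measured. All 6 parents met the level limits of the rule, so a copy that takes reads of its parent can pass the rule through them. Nothing is therefore read from the count of 10. Rpsa-ps10 (chr3:150072658-150073542, minus strand) was 99.3% identical to Rpsa along its whole transcript, with 6 differing bases in 885 and a longest identical run of 350 bases. Reads from such a stretch match both genes, and no source used here says how the authors assigned them, so the levels of copies and their parents are uncertain. Rpsa-ps10 stood at 93.2% of the Rpsa level in GATA-1 2RA, 96.6% in GATA-1 V205M, 98.4% in GATA-1 WT and 91.7% in the control. At the other end, Prdx6-ps2 (chr4:25307830-25308523, plus strand) was 82.0% identical to Prdx6, with a longest identical run of 46 bases, and stood at 2.98% of Prdx6 in GATA-1 2RA, 3.82% in GATA-1 V205M, 3.63% in GATA-1 WT and 2.503% in the control. The first 90 coding bases of each parent are set beside the copy below to show how close the pairs are, with differing bases in capitals (GENCODE M21 transcripts, 5′ to 3′).
Rpsa-ps10: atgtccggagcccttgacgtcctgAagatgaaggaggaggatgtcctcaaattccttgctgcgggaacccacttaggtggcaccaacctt
Rpsa: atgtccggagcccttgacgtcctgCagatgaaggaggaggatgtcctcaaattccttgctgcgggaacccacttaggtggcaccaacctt
Prdx6-ps2: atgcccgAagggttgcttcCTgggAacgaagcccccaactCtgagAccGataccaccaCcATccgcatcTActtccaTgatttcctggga
Prdx6: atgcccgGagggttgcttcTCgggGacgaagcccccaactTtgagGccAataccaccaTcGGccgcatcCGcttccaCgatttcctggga
This stretch holds 1 differing base in the Rpsa pair and 13 in the Prdx6 pair.

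For 6 of the 10 copies the order of the groups was that of the parent, and for the other 4 (Ldha-ps2, Gm11814, Gm14928 and Prdx6-ps2) GATA-1 2RA and the control stood the other way round. Ldha-ps2 had 211 scaled reads in GATA-1 2RA, 968 in GATA-1 V205M, 1423 in GATA-1 WT and 334 in the control, and Gm11814 had 65.7 in GATA-1 2RA, 300.3 in GATA-1 V205M, 438 in GATA-1 WT and 102 in the control. In both copies GATA-1 2RA was below the control, while the parent Ldha was at 4333 in GATA-1 2RA, against 3987 in the control. Aldoart1, a copy of the aldolase gene Aldoa, had 1770 in GATA-1 2RA, 3075 in GATA-1 V205M, 4938 in GATA-1 WT and 935 in the control. Gm8659, also a copy of Aldoa, had 361 in GATA-1 2RA, 619 in GATA-1 V205M, 829 in GATA-1 WT and 185 in the control. Gm13050, a copy of Eef2 (97.0% identical), had 1084 in GATA-1 2RA, 1685 in GATA-1 V205M, 2282 in GATA-1 WT and 658 in the control. The Odc1 copies Gm17709 and Gm14928 were 98.1% and 95.8% identical to Odc1. Without the 10 copies, the median log2 difference over 31 members was -1.46 for GATA-1 2RA minus GATA-1 WT and -0.42 for GATA-1 V205M minus GATA-1 WT.

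**Figure D5:**
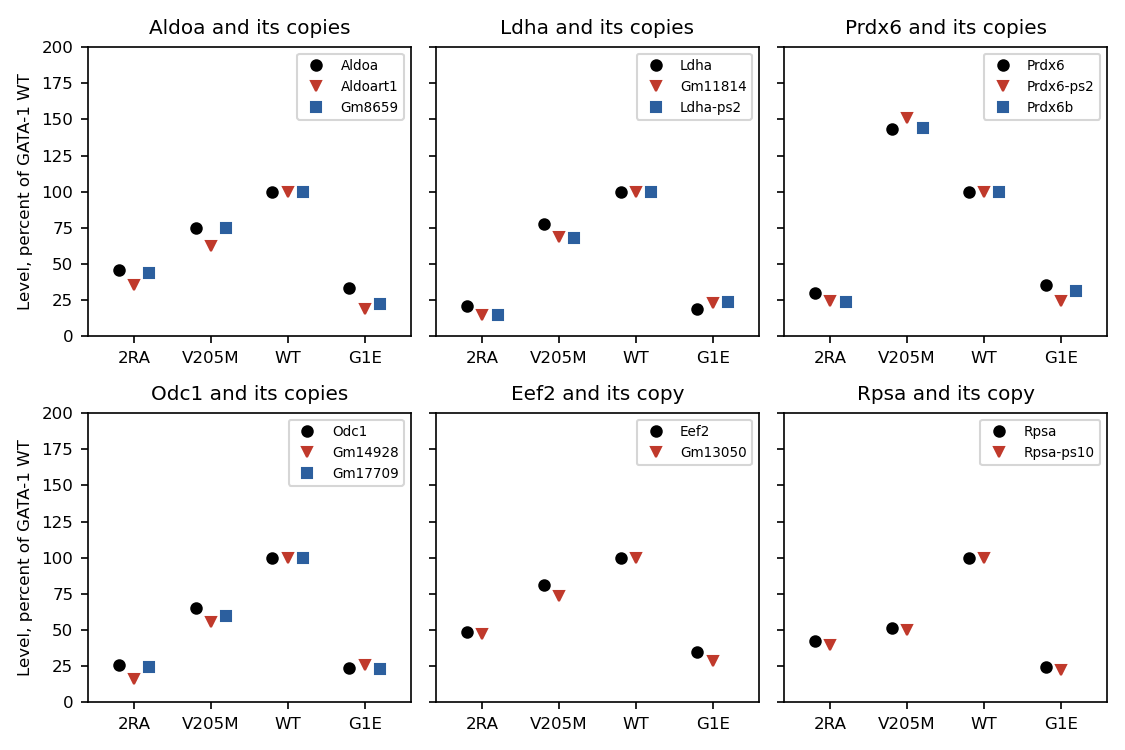
Levels of the 6 parent genes (black circles) and their 10 single-exon copies (red triangles and blue squares) as a percentage of the gene's own GATA-1 WT level, 1 sample a group. The widest gaps between a copy and its parent are in the control for Aldoart1 (18.9%) and Aldoa (33.1%) and in GATA-1 2RA for Gm14928 (15.9%) and Odc1 (25.9%), Prdx6 and its copies are at 143% to 151% of GATA-1 WT in GATA-1 V205M, and Aldoa and Ldha were left out of the module by name.

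Among genes of the red cell and its metabolism, Kel (chr6:41686330-41704339, minus strand) encodes the Kell blood group protein, a zinc endopeptidase of the red cell membrane. It had 23.6 scaled reads in GATA-1 2RA, 109 in each column of GATA-1 V205M, 148 in GATA-1 WT, and 54.0 and 36.4 in the 2 columns of the control. GATA-1 2RA was lower than both control columns, at 0.159 times GATA-1 WT (counting interval 0.107 to 0.230, from 33 reads in GATA-1 2RA). The window around its start (RefSeq, GRCm38.p6, chr6:41704276-41704575, minus strand) is shown because it holds 2 GATA motifs, AGATAA from base -56 and TGATAA from base -19 (capitals).
Kel: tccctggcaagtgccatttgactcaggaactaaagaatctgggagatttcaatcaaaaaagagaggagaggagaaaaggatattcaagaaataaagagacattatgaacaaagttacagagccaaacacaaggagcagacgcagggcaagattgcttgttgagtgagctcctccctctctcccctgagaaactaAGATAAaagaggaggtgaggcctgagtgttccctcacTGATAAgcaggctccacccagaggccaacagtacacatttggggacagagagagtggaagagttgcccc
Of 35 genes of the red cell membrane and skeleton, 20 were in the tables. The authors' deposited table of GATA-1 2RA against GATA-1 WT had 12 of the 20 as lower, and that of GATA-1 V205M against GATA-1 WT had 15. Over all tested genes, 4.04% and 5.65% were so listed. The 20 were already genes of a deposited table, so nothing is read from these counts beside those shares. Kel was the member among the 20. The median of GATA-1 V205M minus GATA-1 WT over the 15 genes with all 4 levels was -2.44, against -0.43 over the 1124 genes.

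Ppox, which oxidizes protoporphyrinogen in the step before iron insertion into heme, had 214 scaled reads in GATA-1 2RA, 379 in GATA-1 V205M, 511 in GATA-1 WT and 141 in the control. It was the only member among 24 heme synthesis genes, of which 14 were in the tables. The authors' deposited table had 13 of the 14 as lower in GATA-1 2RA than in GATA-1 WT. The authors' deposited table for GATA-1 V205M against GATA-1 WT had 12 as lower. Over all tested genes, 4.04% and 5.65% were so listed. The 14 were already genes of a deposited table, so nothing is read from these counts beside those shares. Odc1, the rate-limiting enzyme of polyamine synthesis, had 221 in GATA-1 2RA, 556 in GATA-1 V205M, 853 in GATA-1 WT and 201 in the control, and GATA-1 2RA was within counting error of the control (ratio 1.098, interval 0.873 to 1.20). Klf13, a zinc finger transcription factor of the Krüppel-like family, had 164 in GATA-1 2RA, 250 in GATA-1 V205M, 452 in GATA-1 WT and 112 in the control. Bcl2l13, a Bcl-2 family protein of mitochondria, had 332 in GATA-1 2RA, 856 in GATA-1 V205M, 764 in GATA-1 WT and 269 in the control. Bcl2l13 overlaps Bid on the opposite strand over 913 bases, and Bid was lowest in GATA-1 WT, at 299 in GATA-1 2RA, 284 in GATA-1 V205M, 122 in GATA-1 WT and 329 in the control, the other way round from Bcl2l13. No source used here gives the strand of the libraries, so reads of the shared bases cannot be told apart.

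Ampd2, an AMP deaminase of purine metabolism, and Gnai3, an inhibitory G protein subunit, are neighbours on chromosome 3, on the same strand, 20.6 kb apart with Gnat2 between them. Ampd2 had 189 scaled reads in GATA-1 2RA, 854 in GATA-1 V205M, 571 in GATA-1 WT and 179 in the control. Gnai3 had 717 in GATA-1 2RA, 2010 in GATA-1 V205M, 2081 in GATA-1 WT and 618 in the control. GATA-1 2RA was near the control for both, while GATA-1 V205M was above GATA-1 WT for Ampd2 (ratio 1.495, interval 1.38 to 1.62) and within counting error of it for Gnai3 (0.966, 0.922 to 1.01).

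Signalling and cytoskeleton had 9 members, Gnai3 included, several with few reads. Myo6 (chr9:80165031-80311729, plus strand), a myosin that moves toward the minus end of actin filaments, had 5.72 scaled reads in GATA-1 2RA, 67.9 and 63.1 in the 2 columns of GATA-1 V205M, 43.5 in GATA-1 WT, and 7.71 and 11.2 in the 2 columns of the control. Its ratio of GATA-1 2RA to GATA-1 V205M, 0.0873, was the lowest of the module and rested on 8 reads in GATA-1 2RA (counting interval 0.0369 to 0.176). Stk38l, a kinase of the NDR family, had 10.7 in GATA-1 2RA, 60.1 in GATA-1 V205M, 71.8 in GATA-1 WT and 18.4 in the control, from 15 reads in GATA-1 2RA. Ppard, a fatty acid sensing nuclear receptor, had 19.3 in GATA-1 2RA, 93.9 in GATA-1 V205M, 143 in GATA-1 WT and 23.0 in the control. Mapk9, the stress kinase JNK2, had 93.6 in GATA-1 2RA, 317 in GATA-1 V205M, 192 in GATA-1 WT and 90.9 in the control, and its GATA-1 V205M level was the highest of the module relative to GATA-1 WT (1.65, interval 1.45 to 1.90). Ankrd9, an ankyrin repeat protein, had 49.3 in GATA-1 2RA, 104 in GATA-1 V205M, 157 in GATA-1 WT and 24.7 in the control, and Evi5, a regulator of Rab GTPases, had 45.0 in GATA-1 2RA, 89.2 in GATA-1 V205M, 130 in GATA-1 WT and 29.0 in the control. Camsap2, which binds the minus ends of microtubules, had 116 in GATA-1 2RA, 211 in GATA-1 V205M, 278 in GATA-1 WT and 101 in the control.

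Mylk3, a kinase of the myosin light chain best known from heart muscle, had 61.4 scaled reads in GATA-1 2RA, 194 in GATA-1 V205M, 257 in GATA-1 WT and 74.4 in the control. GATA-1 2RA lay between the 2 columns of the control, at 89.9 and 58.8. Like Kel it had 2 GATA motifs, AGATAA from bases -100 and -50 (capitals), in 1 of its windows (RefSeq, GRCm38.p6, chr8:85380992-85381291, minus strand).
Mylk3: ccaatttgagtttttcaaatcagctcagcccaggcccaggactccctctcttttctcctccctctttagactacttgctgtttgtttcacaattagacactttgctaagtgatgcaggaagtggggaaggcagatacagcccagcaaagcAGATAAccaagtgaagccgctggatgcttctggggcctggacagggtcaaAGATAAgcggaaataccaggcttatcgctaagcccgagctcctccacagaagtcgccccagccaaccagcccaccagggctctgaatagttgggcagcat

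Chromosomes and division had 4 members. Orc2, a subunit of the origin recognition complex that marks sites of DNA replication, had 440 scaled reads in GATA-1 2RA, 799 in GATA-1 V205M, 1068 in GATA-1 WT and 282 in the control. Orc2 overlaps Nif3l1 on the opposite strand over 19046 bases, and Nif3l1 had 69.3 in GATA-1 WT and 159 in the control, the reverse order. Cenpa, the histone H3 variant of centromeres, had 336 in GATA-1 2RA, 439 in GATA-1 V205M, 688 in GATA-1 WT and 180 in the control. Shcbp1, a protein of the midbody in dividing cells, had 209 in GATA-1 2RA, 275 in GATA-1 V205M, 523 in GATA-1 WT and 120 in the control. Kdm5b, a demethylase of histone H3 lysine 4, had 116 in GATA-1 2RA, 204 in GATA-1 V205M, 350 in GATA-1 WT and 88.1 in the control. All 4 were graded, with GATA-1 2RA above the control beyond counting error and GATA-1 V205M between GATA-1 2RA and GATA-1 WT.

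RefSeq start windows (250 bases before to 50 after a start, GRCm38.p6) were held for 29 of the 41 members, in 34 windows. AGATAA or TGATAA, on either strand, was in 5 of the 34 (14.7%), against 18.6% of 32851 windows of the same length. These were the windows of Kel, Mylk3 and Pkm2 printed above, and of Cenpa and Orc2. In Cenpa (from base -80) and Orc2 (from base -198) the motif lay on the strand opposite to the gene. The letters CCNCNCCC, searched on both strands, were in 76.5% of the members' windows against 49.5% of all, ACGTG or GCGTG in 67.6% against 43.8%, CACGTG in 8.82% against 7.15%, and CCAAT in 52.9% against 37.4%. CACGTG contains ACGTG, so these counts overlap. The members' windows had a median GC content of 62.3%, against 52.7% over all windows, and its part in these shares was not tested. A match is a description of the letters and no evidence of binding.

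By the distance between the 4 log2 levels and the members' median profile, the nearest genes outside the module were Tfrc (0.214), Slc31a1 (0.324), Aldoa (0.409), Slc2a1 (0.448) and Ccna2 (0.477), measured over 4 groups. The distances of the members themselves ran from 0.213 (Evi5) to 1.54 (Myo6). Tfrc, the transferrin receptor, which takes up iron for heme, had 1306 scaled reads in GATA-1 2RA, 3451 in GATA-1 V205M, 4018 in GATA-1 WT and 1145 in the control, and met every level limit but was left out by symbol. Ccna2, cyclin A2, had 1355 in GATA-1 2RA, 2662 in GATA-1 V205M, 5412 in GATA-1 WT and 923 in the control, and missed the limit because GATA-1 V205M was 0.492 times GATA-1 WT. Just inside the same limit were Rpsa-ps10 at 0.503 and Rpsa at 0.512, and just outside was Rpsa-ps11 at 0.493. On the limit of 2 times the control in GATA-1 2RA, Ankrd9 at 1.996 lay inside and Ercc5 at 2.002 outside. On the limit of 0.5 times GATA-1 WT in GATA-1 2RA, Cenpa at 0.489 and Psmd4 at 0.488 lay inside and Gm14410 at 0.545 outside.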

How the data were processed

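RNA of the 4 samples was prepared with a TruSeq RNA kit and sequenced on an Illumina HiSeq, per the labels' protocols. The build was mm10, and deepTools, TopHat, Cuffdiff and Cufflinks are named, per the submitters' processing notes. No source used here gives their roles or versions, or the tool that made the tables. The deposited signal is the mean of reads over the count columns of a group, each divided by a size factor. The authors' fold is the ratio of the 2 group levels, the authors' log2 value is its logarithm, and the authors' p-value comes with an adjusted p-value; the 6 deposited tables hold the genes past 2-fold whose adjusted p was below 0.01, of 12931 tested. A gene missing from a table was below those limits or not tested.

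Every deposited level was solved as whole reads times 1 or 2 fixed steps within a relative tolerance of 1e-09, for 100% of values. For GATA-1 2RA this covers 1931 genes, with a largest relative error of 4.96e-10; each of its tables holds only 70 to 72 genes with 20 or fewer reads, so the step rests on higher values too. The step gave size factors of 1.40 (GATA-1 2RA), 1.16 and 0.998 (GATA-1 V205M), 1.59 (GATA-1 WT), and 1.17 and 0.357 (G1E control). The method was tested on simulated data. The plan allowed for FPKM, while the tables hold scaled reads. Counting intervals are exact conditional binomial intervals (95%) on pooled reads; they use the sum of both columns where a group has 2, cover counting error only, and PCR copies are not independent molecules. Intervals against the control are not given for Eef2, Rpsa and Pkm2, whose ratio of levels can lie outside the pooled interval because the 2 control columns differ. There is no replicate and therefore no test between groups. Log2 differences use a pseudocount of 1.

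The members, the lists and the rule's criteria were chosen with earlier results of these data known. Roles, the lists of glycolysis, chaperonin, proteasome, peroxiredoxin and origin recognition genes, and all motifs but the GATA motif were chosen after the members were known. The rule named the 12 members with the largest ratio of GATA-1 WT to the control, the 12 with the highest GATA-1 WT level, the 12 with the largest ratio of GATA-1 WT to GATA-1 2RA, members on a list, the genes beside each limit and the 5 nearest other genes; the other members and genes in the text were named after their values were seen. A gene of the marker and membrane lists is not reported here and was left out of their sums and counts. Copies were found with blastn 2.17.0 against GENCODE M21 transcripts at an e-value of 1e-20, and coordinates are from GENCODE M21 (GRCm38). Python 3.11.15, numpy 2.4.6, pandas 2.3.3, scipy 1.17.1 and matplotlib 3.10.9 were used. Alternatives were other fold and level limits, no symbol left out, rescaled levels, left-out count columns, other pseudocounts, a stricter adjusted p and other GATA letters.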

Additional observations from a re-analysis of the deposited data

Results flagged for a closer look

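Under the authors' scaling, 11 members were below the G1E control in GATA-1 2RA. All 11 were above it in GATA-1 V205M, as the rule requires of every member. Rescaling by the median of ratios moved the members' median log2 of GATA-1 2RA minus the control from 0.21 to -0.36, so the count of 11 depends on the scaling. With the authors' scaling the 2 mutants lay on opposite sides of the control for these 11. The difference was not tested, since each group is 1 sample. The 11 were Kel, Stk38l, Myo6, Gm14928, Ldha-ps2, Gm11814, Pkm2, Prdx6b, Mylk3, Ppard and Prdx6. Kel was 0.522 times the control in GATA-1 2RA (counting interval 0.304 to 0.721) and 2.42 times in GATA-1 V205M. Prdx6 was 0.855 times the control in GATA-1 2RA (0.791 to 0.905) and 4.07 times in GATA-1 V205M. Mylk3 and Ppard lay between the 2 count columns of the control in GATA-1 2RA. For Stk38l, Myo6 and Ppard the counting interval in GATA-1 2RA held 1. Prdx6b, Ldha-ps2, Gm11814 and Gm14928 are copies whose reads may be shared with their parents.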

How the results depend on the processing

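Of 67 alternatives over the number of members, the median log2 differences, the counts in the authors' deposited tables and the promoter share, 62 left a count within 1.5 times its value, a log2 median within 0.34 (the largest SD of the difference between 2 count columns over the members) or the promoter share within its 95% interval, and 5 did not. A count near 41 does not mean the same genes. With a fold limit between 1.5 and 2 the rule gave 30 genes, 28 of them among the 41. With a fold limit of 2.5 the rule gave 25 genes, 18 of them among the 41. With levels rescaled by the median of ratios it gave 23, of which 13 were among the 41. The rescaling uses genes selected for change, and it divided levels by 1.14 (GATA-1 2RA), 0.907 (GATA-1 V205M), 1.31 (GATA-1 WT) and 0.766 (G1E control). Under it the median of GATA-1 V205M minus GATA-1 WT was 0.092, that of GATA-1 WT minus the control was 1.16, and that of GATA-1 2RA minus the control was -0.36. Leaving out a count column of the control gave 36 genes, 35 of them among the 41, or 41 genes, 36 of them among the 41. Leaving out one of GATA-1 V205M gave 40 or 42 genes, each with 40 of the 41. No paired analysis was possible because each group is 1 sample. Precision is limited for members with few reads, such as Myo6 with 8 in GATA-1 2RA.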
